A study of Mus musculus with 10 samples.

Results

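The coagulation and fibrinolysis genes described here are 35 genes for the clotting cascade, its inhibitors, the plasmin system and the vitamin K cycle. They were chosen by name, and all probes annotated to them were taken from the signal table. Of the 35 genes, 34 had at least 1 probe among the 19057 genes with a named probe, and together they had 68 of the 45281 probes. *Cpb2*, which encodes a carboxypeptidase that slows fibrinolysis, had no probe with its name.

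The livers came from mice of a strain derived from 129S1/SvImJ and C57Bl/6J mice, which the control mice shared. One group was fed a Western diet with sugar water, a fructose and glucose solution (WD SW), and the control group a chow diet (CD) with normal water, both for 8 weeks. Male mice that were 8 to 12 weeks old at the start are named in the study's account of its diets. Total RNA of each liver was read on an Illumina mouse bead array, 5 arrays per diet, and this small number limits how precise each value can be. The replicate numbers only name the arrays, and p-values reflect only the spread among these livers.

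Most clotting factors are made by hepatocytes and secreted into plasma as inactive precursors. Tissue factor, or contact with a foreign surface, starts a chain of proteases that ends with thrombin, and thrombin turns fibrinogen into the fibrin of a clot. Antithrombin, heparin cofactor II and the protein C pathway hold thrombin formation in check, plasmin dissolves fibrin, and the vitamin K cycle supplies the carboxylated glutamates through which several of these proteins bind membranes.

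The 3 fibrinogen chain genes lie beside each other on mouse chromosome 3, and the RNA signals of *Fgg* and *Fga* are compared below. Their promoters are shown for that reason, as the 250 bases upstream of the start given by RefSeq (GRCm38.p6), 5′ to 3′ on the strand of the gene. Capitals mark matches, on either strand, to letters bound by liver factors: the core of HNF1 sites (GTTAAT), C/EBP (TTGCNNAA), STAT (TTCNNNGAA) and the type II element of interleukin 6 response (CTGGGAA). *Fgg* is at chr3:83007474-83007723 on the plus strand, *Fga* at chr3:83025903-83026152 on the plus strand and *Fgb* at chr3:83049864-83050113 on the minus strand.
Fgg: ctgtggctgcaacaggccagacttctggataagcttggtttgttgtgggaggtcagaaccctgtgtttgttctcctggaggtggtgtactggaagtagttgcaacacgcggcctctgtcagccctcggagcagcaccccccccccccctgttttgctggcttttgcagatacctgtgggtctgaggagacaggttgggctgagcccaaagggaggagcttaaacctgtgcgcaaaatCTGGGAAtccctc
Fga: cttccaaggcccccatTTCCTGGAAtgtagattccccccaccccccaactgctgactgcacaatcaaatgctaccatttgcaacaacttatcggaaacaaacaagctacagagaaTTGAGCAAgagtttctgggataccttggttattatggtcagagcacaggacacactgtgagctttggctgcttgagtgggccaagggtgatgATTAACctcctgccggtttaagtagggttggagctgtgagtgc
Fgb: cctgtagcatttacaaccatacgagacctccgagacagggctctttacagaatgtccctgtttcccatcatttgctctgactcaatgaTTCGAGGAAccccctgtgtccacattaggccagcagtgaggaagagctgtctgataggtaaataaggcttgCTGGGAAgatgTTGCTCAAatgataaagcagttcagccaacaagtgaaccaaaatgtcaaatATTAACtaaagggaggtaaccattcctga
The *Fga* window held the STAT, C/EBP and HNF1 letters, and the *Fgb* window held those and the interleukin 6 letters. In *Fgg* only the interleukin 6 letters were found, 13 to 7 bases upstream of the start. Short matches of this kind are frequent: of 32851 promoters of the same length, 6.43% held the HNF1 letters, 9.56% C/EBP, 7.02% STAT and 9.1% the interleukin 6 letters. Among the 30 promoters of 28 of the genes described here, the shares were 13.3%, 30%, 13.3% and 13.3% in the same order, and none held the HNF4 letters CAAAGTCCA, which 0.384% of all promoters held. The STAT and interleukin 6 letters can overlap, as in *F9*. A match is a description of the letters and not a site.

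Signals were background corrected, quantile normalized between arrays and put on the log2 scale, on which a difference of 1 is a 2-fold change. A probe was tested where it was above background on at least 5 of the 10 arrays. That left 55 of the 68 probes, and 29 of the 34 genes, among 17368 probes and 10187 genes tested in all. Each gene was called by its brightest tested probe where limma's adjusted p, over all probes tested, was under 0.05. The CD arrays were not equally bright. The unnormalized signal at the 95th percentile of probes was 870 to 1023 on the WD SW arrays and 921 on CD replicate 1, but 403 to 548 on CD replicates 2 to 5. CD replicates 3 and 4 also held high acute phase RNA, with *Saa1*, a serum amyloid gene, at 13.21 and 13.99 on the log2 scale, where CD replicates 1, 2 and 5 had 6.42 to 7.69 and WD SW livers 9.31 to 11.26. No array repeated another, as the highest correlation within a diet was 0.9878. All 8 hepatocyte markers examined were above background on all 10 arrays.

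By their brightest probe after quantile normalization, these clotting and fibrinolysis genes were more often lower than higher in WD SW livers. Of the 29 genes tested, 11 were lower and 4 higher, and 14 did not pass the test. The lower genes made up 37.9% of the 29, where 15.4% of all genes tested were lower, and the higher genes 13.8%, where 14.5% of all genes were higher. Calls of either direction covered 51.7% of these genes and 29.9% of all genes. The median log2 difference (WD SW minus CD) was -0.21, against -0.046 over all genes. These genes are bright: 21 of them had a mean log2 signal above 8.459, a level that 2547 of all genes passed. Of the 21, 9 (42.9%) were lower and 2 (9.52%) higher, where 20.5% of the 2547 were lower and 15.6% higher. By probe, 33 of 55 (60%) passed, 15 higher and 18 lower, against 31.2% of all probes, so the split was more even than by gene. A second list of clotting genes, given below, went the other way, with 7 higher and 3 lower of 16 tested. The diets did not overlap in any array for 10 of the 29 genes (34.5%), and for 19.6% of all genes. In whole liver, fewer cells of a type and less RNA per cell cannot be told apart.

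The split of the calls moved with the scaling of the arrays. Higher genes were 26.7% of the calls with quantile normalization, against 48.4% of the calls over all genes. With median scaling over all probes, which put the median of all genes at 0.48, 10 genes were higher and 4 lower. Higher genes were then 71.4% of the calls, against 97% over all genes. With median scaling over the tested probes, which put that median at -0.22, 3 were higher and 15 lower (16.7% higher, against 26.8% over all genes). The median scalings differ only by a constant per array, so a gene has the same place relative to the median of all genes in each. In that place the 11 genes called lower lay below the median and the 4 called higher above it. Each direction given here is therefore relative to the bulk of genes. Of the 11 lower genes, *Proz*, *Serpinc1* and *F2* had a difference above 0 with median scaling over all probes. The calls moved further with array brightness. With array brightness as a covariate 4 of the 29 genes passed (13.8%, against 4.21% of all genes), *Serpind1* and *F8* higher and *F10* and *Hrg* lower. Over the 11 calls lost, the difference was a median 0.635 times its value without the covariate (0.0743 to 0.95 times) and the SE 1.6 times (1.38 to 1.68 times), so a lost call can rest on the larger SE, as for *Apoh* (-0.82 ± 0.24). Against CD replicate 1 alone, a single control array whose spread is not measured and was assumed to be that of the WD SW arrays, 6 passed (20.7%, against 8.37% of all genes), namely these 4 with *Fgg* and *Klkb1*, both lower. Without CD replicates 3 and 4, 10 genes were lower and 2 higher.

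**Figure D1:**
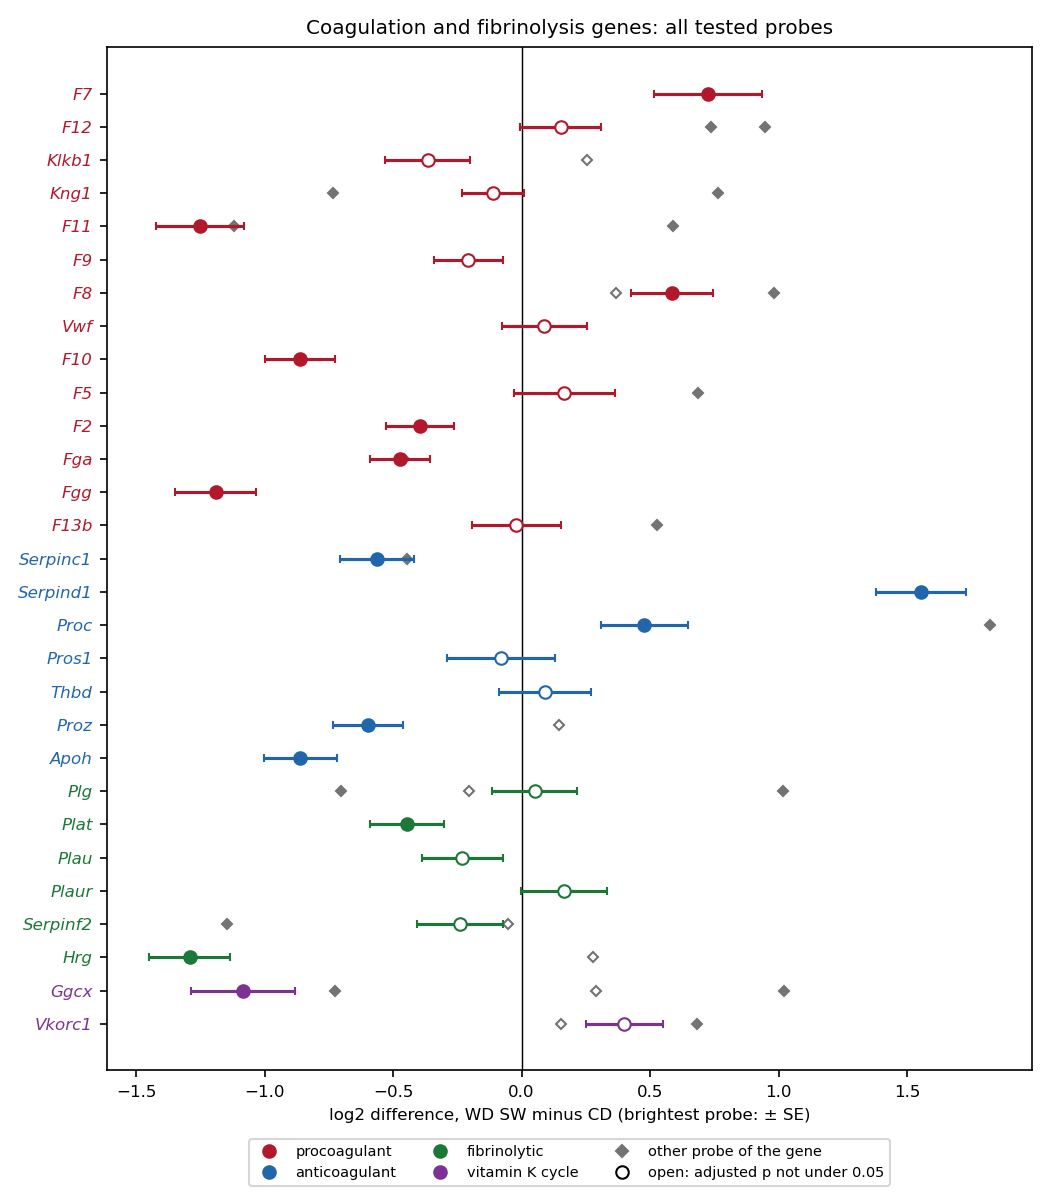
Log2 difference (WD SW minus CD) of every tested probe of the 29 genes. Circles with bars are the brightest probe of each gene ± SE and diamonds its other probes, filled where the adjusted p was under 0.05, and the colour gives the class of the gene. Most filled circles lie left of 0, and the circle of *Serpind1* lies farthest right of the circles, at 1.55. A filled diamond of *Proc* lies farther right, at 1.82. *Kng1*, *F11*, *Plg* and *Ggcx* have filled symbols on both sides. The second *Fga* probe, at -0.46, is hidden behind the first.

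The initiation step could be followed through 1 of its 2 genes. *F3*, tissue factor, the membrane receptor that starts clotting, was not above background on any array. *F7*, factor VII, the protease that works bound to tissue factor, had log2 signals of 6.89, 6.47, 7.06, 6.67 and 6.96 on the WD SW arrays and 6.41, 6.57, 5.33, 5.91 and 6.21 on the CD arrays (replicates 1 to 5 in order, as below). CD replicate 3 was the lowest array and CD replicate 2 was above the lowest WD SW array, so the diets overlapped. *F7* rose by 0.73 ± 0.21 on the log2 scale (difference ± SE, n = 5 per diet, as below), a 1.65-fold increase (limma adjusted p = 0.0169). Without CD replicates 3 and 4 the difference was 0.42 and the call was lost (adjusted p = 0.0865).

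In the contact and intrinsic steps 1 of 7 genes was higher and 1 lower (14.3% each), near the 14.5% and 15.4% of all genes. *F11*, factor XI, was at 10.35, 10.26, 11.01, 10.36 and 10.41 on the WD SW arrays and at 11.36, 11.55, 11.91, 11.85 and 11.97 on the CD arrays. All CD arrays were above all WD SW arrays, and WD SW replicate 3 stood above the other WD SW arrays. *F11* fell by 1.25 on the log2 scale (SE 0.17, 2.38-fold lower, limma adjusted p = 0.000125). Its second probe gave -1.12 ± 0.15. The third *F11* probe, not above background on any CD array, went the other way, at least 1.075-fold higher in WD SW (adjusted p = 0.011), with 5.79, 5.11, 5.28, 5.04 and 5.05 against 4.62, 4.58, 4.92, 4.61 and 4.59.

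*F8*, factor VIII, the cofactor of factor IX and a product mainly of endothelial cells, was at 7.42, 6.88, 7.17, 7.02 and 7.30 on the WD SW arrays and at 6.20, 6.49, 6.56, 6.63 and 6.98 on the CD arrays. CD replicate 5 lay within the WD SW range, and the other CD arrays lay below it. *F8* rose by 0.59 ± 0.16 (1.5-fold, limma adjusted p = 0.0123), and of its other tested probes the second gave 0.98 ± 0.14 with no overlap of the diets and the third 0.37 ± 0.17, which did not pass. With the brightness covariate the difference was 0.94 ± 0.24 (adjusted p = 0.0408). Of 8 sinusoidal endothelial markers 2 were higher and 1 lower, where 14.5% and 15.4% of all genes were. The summed linear signal of the 8 was 3507 to 4924 on the WD SW arrays and 2823 to 4755 on the CD arrays. None of these markers was at background on all arrays, and their part in the *F8* result was not tested. *Vwf*, von Willebrand factor, the endothelial and platelet protein that carries factor VIII in plasma, differed by 0.088 ± 0.17 and did not pass (adjusted p = 0.721).

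The contact protease precursors did not pass by their brightest probe. *F12*, factor XII, differed by 0.15 ± 0.16, although its other 2 probes were higher by 0.74 and 0.95. For *Klkb1*, plasma prekallikrein, the difference was -0.37 ± 0.16 (adjusted p = 0.105), and it passed without CD replicate 4 (-0.49, adjusted p = 0.0218) or without CD replicates 3 and 4 (-0.61, adjusted p = 0.00654). *F9*, factor IX, differed by -0.21 ± 0.13.

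*Kng1*, kininogen, is the cofactor of the contact proteases and the source of bradykinin, and its 3 probes disagreed. The brightest was at 14.82, 14.64, 14.77, 14.77 and 14.80 on the WD SW arrays and at 14.98, 14.76, 14.76, 14.82 and 15.04 on the CD arrays, a difference of -0.11 ± 0.12 with overlapping diets. This probe is among the brightest of the array (99.98% of probes were dimmer), and its size depends on the scaling. It was lower by limma in the authors' normalized table (-0.39, adjusted p = 0.00528) and with median scaling over tested probes (-0.91, adjusted p = 0.000209). The second fell by 0.73 on the log2 scale (SE 0.14), from 12.98, 12.90, 13.17, 13.49 and 13.33 on the CD arrays to 12.31, 12.26, 12.62, 12.50 and 12.51, with no overlap. The third probe, which was dim, was higher by 0.76 ± 0.24, with 6.34, 5.99, 6.25, 5.40 and 6.01 against 5.68, 4.83, 5.29, 5.79 and 4.57, and it was above background on 3 CD arrays.

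In the common steps *F10* and *F2* were lower and *F5* did not pass. *F10*, factor X, the protease that activates prothrombin, was at 11.08, 11.29, 11.53, 11.09 and 10.96 on the WD SW arrays and at 12.15, 11.98, 11.93, 12.12 and 12.08 on the CD arrays. The CD arrays lay close together and all above the WD SW arrays, CD replicate 1 highest. *F10* fell by 0.86 (SE 0.14, 1.82-fold lower, limma adjusted p = 0.000348), and with the brightness covariate the difference was -0.89 ± 0.23 (adjusted p = 0.0401).

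*F2*, prothrombin, was at 11.48, 11.65, 11.44, 11.33 and 11.16 on the WD SW arrays and at 11.62, 11.89, 11.80, 11.94 and 11.79 on the CD arrays. Only WD SW replicate 2 reached above the lowest CD array. *F2* fell by 0.40 (SE 0.13, limma adjusted p = 0.0333), a call that was lost when any WD SW replicate but the second, or CD replicate 2, 3 or 4, was left out (differences of -0.41 to -0.33). *F5*, factor V, the cofactor of factor X, differed by 0.17 ± 0.20 on its brightest probe, while its other probe was higher by 0.69 ± 0.16.

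The fibrinogen genes measured were lower in WD SW livers. *Fgg*, the gamma chain, was at 11.54, 11.88, 11.97, 11.96 and 12.04 on the WD SW arrays and at 12.72, 12.94, 13.21, 13.47 and 13.001 on the CD arrays. *Fga*, the alpha chain, was at 14.30, 14.54, 14.53, 14.36 and 14.40 on the WD SW arrays and at 14.85, 14.81, 14.90, 14.92 and 15.01 on the CD arrays. No WD SW array reached the lowest CD array for either gene. *Fgg* fell by 1.19 (SE 0.16, 2.28-fold lower, limma adjusted p = 0.000103) and *Fga* by 0.47 (SE 0.12, 1.39-fold lower, adjusted p = 0.00738), and the second *Fga* probe fell by 0.46.

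Fibrinogen is itself an acute phase protein, and CD replicates 3 and 4, the arrays with high *Saa1*, had the highest *Fgg* values. Of 14 acute phase genes 1 was higher and 3 lower in WD SW, where 14.5% and 15.4% of all genes were. The summed linear signal of the 14 was 55590 to 77410 on the WD SW arrays and 45110 to 160600 on the CD arrays. None of the 14 was at background on all arrays. Without CD replicates 3 and 4 the *Fgg* difference was -1.01 (adjusted p = 0.000875) and that of *Fga* was -0.47 (adjusted p = 0.0252). Against CD replicate 1 alone, with the spread of the WD SW arrays only, *Fgg* differed by -0.84 and *Fga* by -0.43.

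The only probe for *Fgb*, the beta chain, was above background on 3 CD arrays and no WD SW array and was not tested, with values of 4.61, 4.84, 4.70, 4.86 and 4.92 in WD SW and 5.06, 4.73, 5.10, 5.56 and 5.24 in CD. Of the fibrin-stabilising factor XIII, the catalytic subunit gene *F13a1* was above background on 1 array and not tested. *F13b*, its plasma carrier subunit, differed by -0.020 ± 0.17 on its brightest probe and was higher by 0.53 ± 0.17 on the other.

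**Figure D2:**
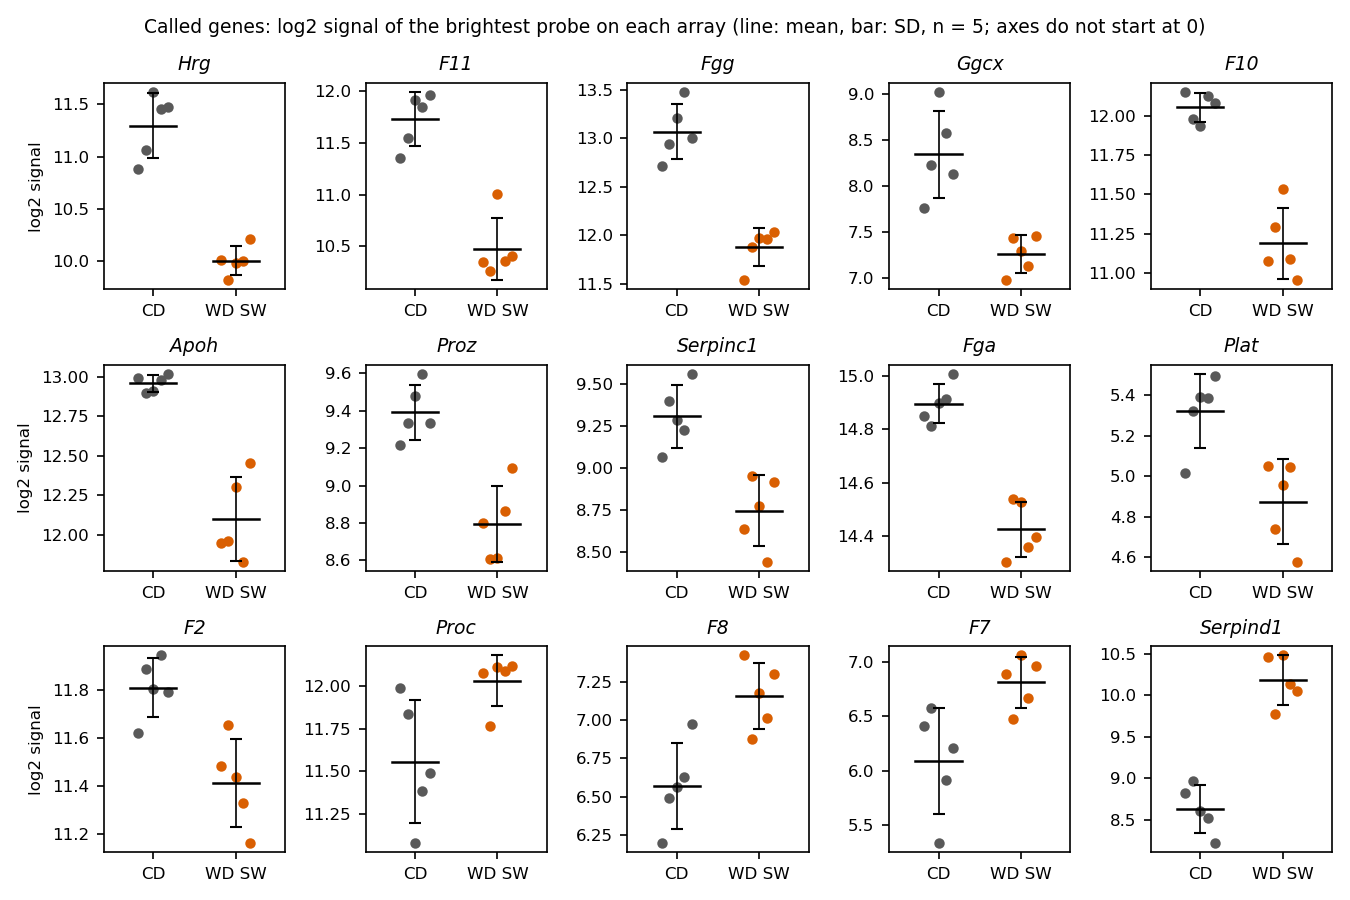
Log2 signal of the brightest probe on each array for the 15 called genes, 5 CD arrays (grey) and 5 WD SW arrays (orange) per panel, with the mean as a line and the SD as a bar. The vertical axes differ between panels and do not start at 0. The diets are apart in 10 panels and overlap for *Plat*, *F2*, *Proc*, *F8* and *F7*.

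Among the inhibitors, 3 of 7 tested genes were lower (42.9%) and 2 higher (28.6%), where 15.4% and 14.5% of all genes were. *Serpind1*, heparin cofactor II, a serpin that inhibits thrombin, was at 10.47, 9.77, 10.48, 10.14 and 10.05 on the WD SW arrays and at 8.82, 8.97, 8.60, 8.53 and 8.22 on the CD arrays. Every WD SW array was above every CD array. *Serpind1* rose by 1.55 ± 0.18, a 2.94-fold increase (limma adjusted p = 2.83e-05), the only increase above 1 among the brightest probes. It passed with the brightness covariate (1.29 ± 0.28, adjusted p = 0.022), and against CD replicate 1 alone the difference was 1.36.

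*Serpinc1*, antithrombin, the main serpin against thrombin and factor X, went the other way. It was at 8.64, 8.95, 8.78, 8.45 and 8.92 on the WD SW arrays and at 9.07, 9.40, 9.29, 9.23 and 9.56 on the CD arrays. The highest WD SW array stayed just below the lowest CD array, CD replicate 1. *Serpinc1* fell by 0.56 (SE 0.14, 1.48-fold lower, limma adjusted p = 0.00851) and by 0.45 on its second probe.

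In the protein C pathway 1 of 3 tested genes passed (33.3%), near the share of all genes (29.9%). *Proc*, protein C, the protease that inactivates factors V and VIII, was at 12.08, 11.77, 12.12, 12.09 and 12.12 on the WD SW arrays and at 11.99, 11.84, 11.08, 11.38 and 11.49 on the CD arrays. The diets overlapped, since WD SW replicate 2 lay below CD replicates 1 and 2. *Proc* rose by 0.48 ± 0.17 (limma adjusted p = 0.0443), a call that was lost when any array but WD SW replicate 2, CD replicate 1 or CD replicate 2 was left out (differences of 0.36 to 0.47). With the brightness covariate the difference was only 0.036 ± 0.25 (limma adjusted p = 0.958), and against CD replicate 1 alone it was 0.045.

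The dimmer *Proc* probe gave a larger difference, with 9.12, 8.30, 9.16, 9.32 and 8.95 on the WD SW arrays and 7.48, 7.99, 6.50, 6.89 and 6.87 on the CD arrays. All WD SW arrays were above all CD arrays there, and the increase was 1.82 ± 0.26 (adjusted p = 0.00016). With the brightness covariate this probe did not pass (1.36 ± 0.41, limma adjusted p = 0.0737). *Pros1*, protein S, the cofactor of protein C, differed by -0.080 ± 0.21, and its sign turned without CD replicate 3 (0.038) or CD replicate 4 (0.0097). *Thbd*, thrombomodulin, the endothelial receptor that turns thrombin to protein C, differed by 0.092 ± 0.18. The protein C receptor gene *Procr*, with 2 probes, was not tested.

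Of the other inhibitors, *Apoh* and *Proz* were lower. *Apoh*, beta-2 glycoprotein I, which binds anionic phospholipid, was at 11.95, 11.96, 12.30, 11.83 and 12.45 on the WD SW arrays and at 12.99, 12.90, 12.91, 12.98 and 13.02 on the CD arrays. *Proz*, protein Z, the cofactor of a serpin that inhibits factor X, was at 8.80, 8.61, 8.61, 8.86 and 9.09 on the WD SW arrays and at 9.22, 9.34, 9.48, 9.60 and 9.33 on the CD arrays. Neither gene's diets overlapped, and the CD arrays of *Apoh* lay closer together than its WD SW arrays. *Apoh* fell by 0.86 (SE 0.14, 1.82-fold lower, limma adjusted p = 0.000465). *Proz* fell by 0.60 (SE 0.14, 1.51-fold lower, adjusted p = 0.00455), although its other probe differed by 0.14 ± 0.17. *Tfpi*, tissue factor pathway inhibitor, had 4 probes and none was tested. Its brightest was above background on 4 WD SW arrays and no CD array.

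Fibrinolysis genes showed 2 decreases in 6 genes tested and no increase by the brightest probe, and the share called (33.3%) was near that of all genes (29.9%). *Hrg*, histidine-rich glycoprotein, which binds plasminogen, fibrinogen and heparin, was at 10.01, 9.82, 9.98, 10.01 and 10.21 on the WD SW arrays and at 10.88, 11.06, 11.62, 11.45 and 11.48 on the CD arrays. CD replicates 3, 4 and 5 were the highest and all CD arrays were above all WD SW arrays. *Hrg* fell by 1.29 (SE 0.16, 2.45-fold lower, limma adjusted p = 4.96e-05), the largest decrease among the brightest probes, and the difference was -0.82 ± 0.22 with the brightness covariate (adjusted p = 0.0435). The dim second *Hrg* probe differed by 0.28 ± 0.19 and did not pass.

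*Plat*, tissue plasminogen activator, was near background, at 5.05, 4.74, 4.96, 5.05 and 4.58 on the WD SW arrays and at 5.01, 5.32, 5.39, 5.39 and 5.50 on the CD arrays. The probe tested was above background on 2 WD SW and 4 CD arrays, and CD replicate 1 lay within the WD SW range. Of 2 further *Plat* probes, neither tested, one leaned the other way, above background on 4 WD SW arrays and no CD array with means of 5.10 and 4.71. *Plat* fell by 0.45 (SE 0.14, limma adjusted p = 0.0278), and the call was lost without WD SW replicate 2 or 5 or without CD replicate 3, 4 or 5 (differences of -0.43 to -0.37). The urokinase gene *Plau* differed by -0.23 ± 0.16 and its receptor gene *Plaur* by 0.17 ± 0.17, and neither passed.

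*Plg*, plasminogen, the precursor of the protease that cleaves fibrin, had 4 tested probes that did not move together. The brightest was at 12.57, 12.17, 12.83, 12.60 and 12.15 on the WD SW arrays and at 12.55, 12.60, 12.25, 12.57 and 12.10 on the CD arrays, a difference of 0.051 ± 0.16. The second fell by 0.70 (SE 0.18, adjusted p = 0.00891), with 9.85, 8.87, 8.90, 9.06 and 8.82 against 9.72, 9.73, 9.92, 9.89 and 9.77, WD SW replicate 1 lying among the CD arrays. The third rose by 1.02 ± 0.30 (adjusted p = 0.02), with 7.57, 5.93, 7.55, 7.44 and 6.38 against 5.46, 6.40, 5.61, 6.13 and 6.20. WD SW replicates 1, 3 and 4 carried that increase, and replicates 2 and 5 lay near the CD arrays. The fourth probe differed by -0.21 ± 0.18.

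The plasmin inhibitor gene *Serpinf2*, alpha-2 antiplasmin, differed by -0.24 ± 0.17 on its brightest probe. One of its dimmer probes was clearly apart between the diets, at 10.18, 10.41, 10.52, 10.51 and 10.41 in WD SW and 11.45, 11.43, 11.40, 11.83 and 11.64 in CD. That probe fell by 1.14 (SE 0.13, adjusted p = 3.57e-05) and passed with the brightness covariate (-0.94 ± 0.21, adjusted p = 0.025). The third *Serpinf2* probe differed by -0.053 ± 0.24.

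The 2 enzymes of the vitamin K cycle did not share a direction. *Ggcx*, the carboxylase that modifies the clotting proteins, was at 6.98, 7.44, 7.29, 7.13 and 7.46 on the WD SW arrays and at 7.77, 8.23, 9.02, 8.57 and 8.14 on the CD arrays by its brightest probe. These arrays did not overlap, and CD replicates 3 and 4 were the highest. *Ggcx* fell by 1.08 by this probe (SE 0.20, 2.12-fold lower, limma adjusted p = 0.00116). A second probe of almost the same mean signal rose by 1.02 ± 0.24 (adjusted p = 0.00533), with 7.88, 8.25, 8.01, 8.76 and 8.61 against 7.66, 7.07, 7.64, 7.59 and 6.44. It also separated the diets, in the other direction, so the direction of *Ggcx* rests on the choice of probe. The third *Ggcx* probe fell by 0.73 (SE 0.15) and the fourth differed by 0.29 ± 0.16. *Vkorc1*, the reductase that recycles vitamin K, differed by 0.40 ± 0.15 and did not pass (adjusted p = 0.053), although 1 of its 2 other probes was higher by 0.68 ± 0.21. It passed when WD SW replicate 2 (0.47, adjusted p = 0.0369) or CD replicate 1 (0.46, adjusted p = 0.0321) was left out.

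The 7 proteins that carry the vitamin K-dependent modification are encoded by *F2*, *F7*, *F9*, *F10*, *Proc*, *Pros1* and *Proz*. Of these 7, 3 were lower (42.9%) and 2 higher (28.6%), with a median difference of -0.21. Among the 23 tested genes made mainly by hepatocytes 10 were lower (43.5%) and 3 higher (13%), with a median of -0.24. Among the 6 tested genes of other cells 1 was lower and 1 higher (16.7% each), with a median of 0.090. By class, the median was -0.16 for 14 procoagulant genes, of which 5 were lower (35.7%) and 2 higher (14.3%), -0.080 for 7 anticoagulant genes and -0.24 for 6 fibrinolytic genes. Over all genes tested 15.4% were lower and 14.5% higher, and the median was -0.046. Of 8 hepatocyte markers 2 were higher and 4 lower, with a summed linear signal of 86720 to 106800 on the WD SW arrays and 77790 to 96490 on the CD arrays. Their part in the results was not tested. Platelet markers were near background, as 2 of 5 were tested and neither passed.

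**Figure D3:**
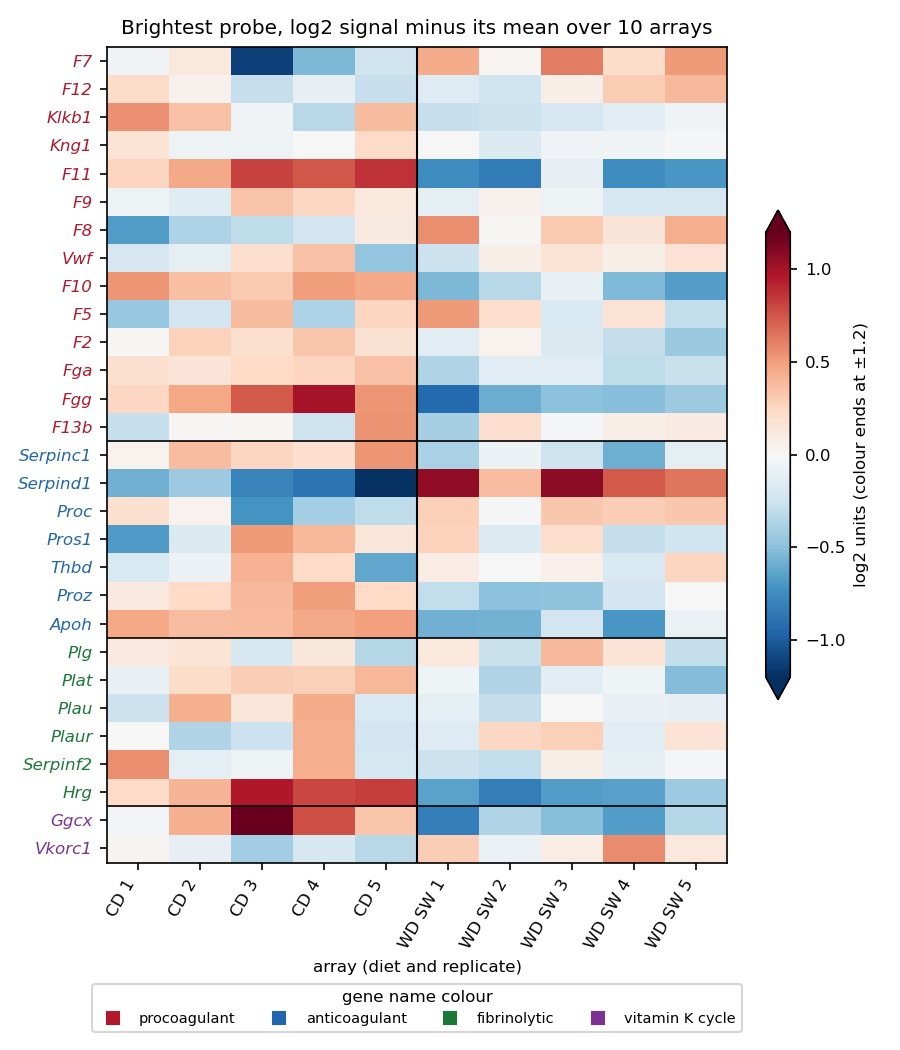
Log2 signal of the brightest probe of the 29 tested genes minus its mean over the 10 arrays, with arrays in columns, genes in rows by class, red above and blue below the mean, and colours ending at 1.2 either way. *Fgg*, *Hrg* and *Ggcx* are highest on CD replicates 3 and 4 or 3 to 5, and *Apoh* and *F10* are about even over the CD arrays.

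Probes of the same gene did not always agree. Several probes were tested for 16 of the genes, and for 4 of these (25%) they passed in opposite directions, namely *Kng1*, *F11*, *Plg* and *Ggcx*, against 167 of 3367 (4.96%) over all genes. The 2 shares are not matched for the number of probes per gene, which was 3 or 4 for these 4 genes. They are also not matched for the share of probes called, 60% here and 31.2% over all probes. Another 4 of the 16 (*Klkb1*, *F13b*, *Proz* and *Hrg*) had tested probes of both signs without opposite calls. When the probes of each gene were averaged, *Proz* and *Ggcx* lost their calls and *Serpinf2*, *F12* and *F5* gained one.

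Several of the genes lie side by side, and not all neighbours changed equally. The 6 pairs of tested genes with at most 1 gene between them in the RefSeq gene order (GRCm38.p6) were taken after the values had been seen. The log2 difference between the genes of a pair was compared between diets by an exact two-sided permutation test over the 10 arrays, whose smallest p is 0.00794. The test uses the same values as the calls above, and the pairs on chromosome 8 share genes. These p-values therefore describe the pairs and add no separate support to the calls. On chromosome 8, *F7*, *F10* and *Proz* follow each other. *F7* minus *F10* was higher in WD SW by 1.59 and *F7* minus *Proz* by 1.32, each with no overlap of the diets (exact permutation p = 0.00794, adjusted p = 0.0119 over the 6 pairs). *F10* minus *Proz* differed by -0.27, and its diets overlapped (exact permutation p = 0.214). With median scaling that difference was -0.52 (exact permutation p = 0.0476). With the brightness covariate *F7* differed by 0.36 ± 0.34, *F10* by -0.89 ± 0.23 and *Proz* by -0.38 ± 0.22. The pairs with *Proz* use its brightest probe, and its other probe differed by 0.14 ± 0.17.

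The fibrinogen chains differed in the size of their decrease, by an amount that moved with the scaling and with the brightness covariate. *Fgg* minus *Fga* was -2.77, -2.66, -2.55, -2.40 and -2.36 on the WD SW arrays and -2.13, -1.87, -1.69, -1.45 and -2.01 on the CD arrays. No WD SW array reached the CD arrays, and the difference between diets was -0.72 (exact permutation p = 0.00794, adjusted p = 0.0119). It was -0.34 with median scaling and -0.56 in the authors' table, each without overlap and with the same p. With the brightness covariate *Fgg* differed by -0.73 ± 0.22 and *Fga* by -0.40 ± 0.19. The *Fga* probe is among the brightest of the array (99.97% of probes were dimmer), and the part of this in the value was not tested. *Hrg* minus *Kng1*, genes with *Kng2* between them on chromosome 16, was lower in WD SW by -1.18 with the same p, and *F11* minus *Klkb1* by -0.88 (exact permutation p = 0.0238, adjusted p = 0.0286). The *F11* and *Klkb1* contrast did not hold with the brightness covariate, where *F11* differed by -0.79 ± 0.25 and *Klkb1* by -0.78 ± 0.24. Against CD replicate 1 alone they differed by -0.88 and -0.73. The *Hrg* and *Kng1* value uses the brightest *Kng1* probe, whose other probes disagreed, and it was -0.46 with median scaling and -0.83 in the authors' table, again without overlap.

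**Figure D4:**
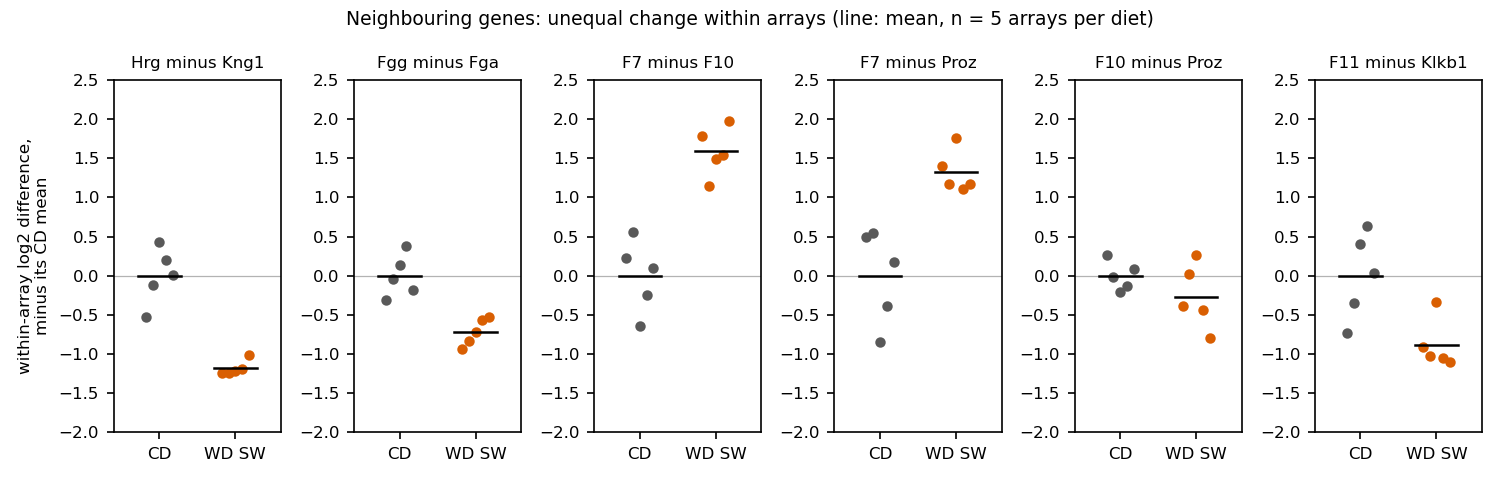
Within-array log2 difference between 2 neighbouring genes, minus its mean over the CD arrays, for 6 pairs, with 5 CD arrays (grey), 5 WD SW arrays (orange) and the mean of each diet as a line. The diets are apart for *Hrg* minus *Kng1*, *Fgg* minus *Fga*, *F7* minus *F10* and *F7* minus *Proz*, and overlap for the other 2 pairs.

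Other genes of clotting and fibrinolysis were examined as a second list of 25 genes, of which 21 had a probe and 16 were tested. Of the 16, 7 were higher and 3 lower, where 14.5% and 15.4% of all genes were, and the median was 0.24 against -0.046 over all genes. The 4 largest increases were in *Anxa2*, the annexin that binds plasminogen and its activator at the cell surface (2.77 ± 0.21), *Kng2*, the second mouse kininogen gene (2.17 ± 0.21), *Anxa5*, an annexin that covers anionic phospholipid (1.93 ± 0.20), and *Gas6*, a vitamin K-dependent ligand of TAM receptors (1.65 ± 0.27). *Kng2* was at 9.60 to 10.75 on the WD SW arrays and at 7.79 to 8.55 on the CD arrays, with no overlap, and both kininogen genes are near copies whose probes may read both. The 3 decreases were in *Serpina5*, a protein C inhibitor (-1.01 ± 0.23), *Serpina10*, the serpin that acts with protein Z (-0.98 ± 0.25), and *Habp2*, a hyaluronan-binding protease that activates factor VII (-0.57 ± 0.14). *Serpina10* and *Proz* thus both fell. A second tested probe was weaker or opposed and did not pass for *Anxa2* (0.26), *Kng2* (0.38) and *Habp2* (0.35). Of the 3 decreases, *Serpina10* was highest on CD replicates 3 and 4, at 13.68 and 13.93. *Serpina5* was near background on the WD SW arrays, at 5.09 to 5.22, against 5.35 to 6.81 on the CD arrays. This limits how well the size of its decrease is known.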

How the data were processed

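Liver RNA of 5 WD SW and 5 CD mice was measured on Illumina mouse bead arrays, and diets were taken from the labels. The authors deposited a table of probe signals as linear fluorescence intensity, neither background subtracted nor normalized, which was the starting point, and a table of normalized intensity, used after log2 transformation as an alternative. The sources used here do not say how it was normalized. Gene names came from the platform annotation (1 symbol for 34885 probes, several for 18, none for 10378).

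The background of an array was the mode of its log2 signals, and detection was a one-sided p under 0.05. Signals were corrected by normexp (offset 16), quantile normalized and fitted per probe with limma 3.58.1 in R 4.3.3, without covariates, with Benjamini-Hochberg adjustment over 17368 probes detected on at least 5 arrays. Quantile normalization hides a shift shared by most genes, and it gives arrays of unequal brightness the same distribution of signals. A bound sets the bright diet's mean against, per array, the higher of the lowest detected signal and the probe's own. The computation was tested on simulated data. Values per array were printed for called genes, fibrinogen chains and genes with opposed probes, and *F2* and single probes of *Proc* and *Serpinf2* were added after their values were seen. Genes and lists were chosen with earlier results of these data known. Alternatives covered background, scaling, filter, probes, variance, brightness, title number and left-out arrays. Protein sequences were not used here.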

Additional observations from a re-analysis of the deposited data

Results flagged for a closer look

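Among 58 groups of 5 values (29 genes in 2 diets), 4 held an array set apart from the rest of its diet by Dixon's criterion, where chance sets one apart in about 1 of 20 groups, or 2.9 of 58. All 4 were WD SW arrays. *Kng1* was at 14.64 on WD SW replicate 2, with the other WD SW arrays at 14.77 to 14.82. *F11* was at 11.01 on WD SW replicate 3, with the others at 10.26 to 10.41, and still below every CD array. *Vwf* was at 5.87 on WD SW replicate 1, with the others at 6.20 to 6.30. *Proc* was at 11.77 on WD SW replicate 2, with the others at 12.08 to 12.12, and its call was kept without that array.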

How the results depend on the processing

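The counts of 11 lower and 4 higher genes and 33 called probes stayed within 1.5 times under 23 and 22 of 26 and 22 of 24 alternatives. Median scaling over all probes gave 4 lower and 10 higher genes, where 97% of the calls over all genes were higher. The brightness covariate gave 2 lower, 2 higher and 6 probes, CD replicate 1 as the only control 4 lower, 2 higher and 10 probes, and leaving out CD replicates 3 and 4 gave 2 higher genes. Leaving out 1 array gave 9 to 11 lower genes, 3 to 5 higher genes and 28 to 33 probes. *Serpind1*, *Hrg* and *F8* kept their calls under all 26. The authors' table kept 14 of the 15 calls, losing *Plat*, and gained *Kng1* (-0.39) and *Vkorc1* (0.40). The random block for the title number, of which each value holds 1 diet, lost *Proc*, *F2* and *Plat*. Median scaling over tested probes, and other scalings of neighbouring genes, were chosen after seeing the data. *Proc* lost its call under the first. The causes of these shifts were not tested.

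Direction turned for 3 called genes (*F2*, *Proz* and *Serpinc1*) and for genes not called. With median scaling over all probes the log2 difference was 0.13 for *F9*, 0.20 for *Serpinf2*, 0.42 for *F13b*, 0.11 for *F2*, 0.27 for *Klkb1*, 0.17 for *Proz*, 0.70 for *Pros1* (which passed there, limma adjusted p = 0.00353), 0.20 for *Serpinc1* and 0.036 for *Plau*. Over tested probes it was -0.21 for *Plg*, -0.091 for *Thbd* and -0.42 for *Plaur*. With the brightness covariate and against CD replicate 1 alone it was -0.060 and -0.088 for *Plg*, 0.24 and 0.27 for *F13b*, -0.068 and -0.14 for *F12*, 0.63 and 0.64 for *Pros1*, and 0.099 and 0.14 for *Plau*. *F13b* turned with array weights (0.0044) and averaged probes (0.25), and *Pros1* without CD replicates 3 and 4 (0.20). Leaving out 1 array turned *Plg* (range -0.039 to 0.13), *F13b* (-0.091 to 0.11), *Pros1* (-0.26 to 0.038), *Vwf* (-0.019 to 0.19) and *Thbd* (-0.053 to 0.21). No paired analysis was possible because the labels give the arrays no shared replicate numbers. Signal over background limits *Plat*, *F3*, *F13a1*, *Fgb*, *Procr* and *Tfpi*.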
